A study of Homo sapiens with 12 samples.

Results

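HOXA3, HOXA4, HOXA5, HOXA6, HOXA7, HOXA9, HOXA10, HOXA11, MEIS1 and PBX3, a group of 10 genes taken as a list of symbols, were followed in MV4-11 cells treated with a topoisomerase II inhibitor, a FLT3 inhibitor or both. All 10 were found among the 43876 genes of the deposited expression table. MV4-11 cells were established from a human acute myeloid leukemia with FLT3-ITD and a KMT2A fusion, and their genotype is labelled wild-type in all 12 samples. The cells were treated for 24 h with DMSO, with mitoxantrone at 20 nM, with gilteritinib at 25 nM, or with a drug combination (Com) of mitoxantrone at 20 nM and gilteritinib at 20 nM. The labels write mitoxantrone, and the study calls this drug mitoxantrone-liposome, so the group is called Mito-Lipo here. Every group had 3 libraries, and no source says whether the libraries of a group came from separate cultures, so p-values measure the spread between these libraries, which may be technical. All samples are of 1 cell line, so nothing here extends to cells without the KMT2A fusion or without FLT3-ITD.

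HOX genes encode homeodomain transcription factors that lie in clusters and are switched on in blocks along the chromosome. MEIS1 and PBX3 encode homeodomain proteins of the TALE class that bind DNA together with HOX proteins. In leukemia with a KMT2A fusion, the fusion protein and its partners keep genes of the HOXA cluster and MEIS1 transcribed. This program is known to hold the cells in an immature, dividing state.

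Levels are given in FPKM, a count of fragments divided by the length of the gene and by the depth of the library, which allows genes of different length to be compared. The depth recovered from the table was 31724970 to 41330609 fragments per library. The cells carried myelomonocytic transcripts, with mean levels of 699 FPKM for LYZ and 158 FPKM for FLT3, while MPO (2.16 FPKM) and CD14 (0.176 FPKM) were low. The 3 T cell markers summed to at most 0.0893 FPKM in any library and the 3 fibroblast markers to at most 0.0857 FPKM. The B cell markers reached 3.33 FPKM, the erythroid markers 3.09 FPKM and the epithelial markers 0.405 FPKM. Libraries labelled replicate 1 stood apart from replicates 2 and 3 along the first principal component, which held 41.9% of the variance, and results that rest on this are given with and without those 4 libraries.

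The 10 genes fell into a silent and an expressed set. HOXA3 to HOXA7, the anterior and central genes of the cluster, stayed under 0.2 FPKM in every library, and HOXA9, HOXA10, HOXA11, MEIS1 and PBX3 stayed above 5 FPKM in every library. The border lay between HOXA7 and HOXA9, which are neighbours on the minus strand of chromosome 7. In GENCODE release 29 (GRCh38), HOXA7 spans chr7:27153716-27157936 and HOXA9 spans chr7:27162435-27175180. The mean level over the 12 libraries was 0.0114 FPKM for HOXA7 and 18.5 FPKM for HOXA9, a ratio of 1629.

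**Figure D1:**
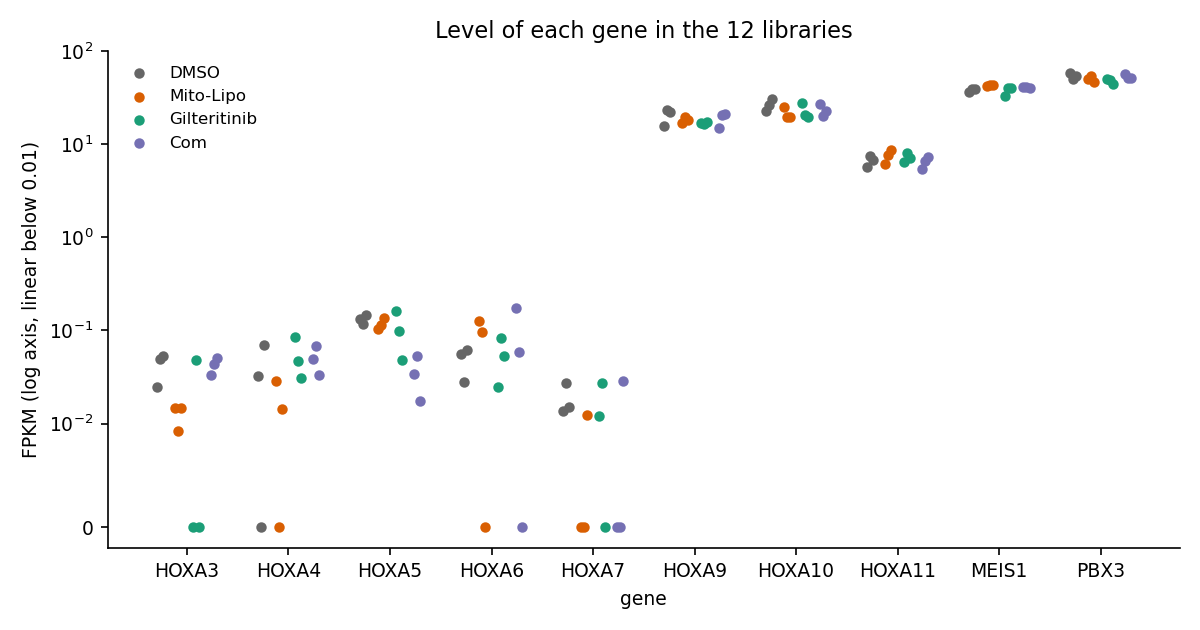
Level of each of the 10 genes in FPKM on a log axis that is linear below 0.01, with 1 point per library and the colour giving the condition. HOXA3 to HOXA7 stay under 0.2 FPKM and the other 5 genes above 5 FPKM in every library, with no condition crossing that gap.

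Promoter sequence is shown for 3 genes on both sides of this border, because the border is sharper than any difference between treatments. RefSeq promoter windows (GRCh38.p14) were matched for 9 of the 10 genes, HOXA5 having no entry in the table used, and the 250 bases before the transcript start are printed 5′ to 3′ on the minus strand. HOXA6 at chr7:27147775-27148024 is silent, and HOXA9 at chr7:27165538-27165787 and HOXA11 at chr7:27185233-27185482 are expressed. Windows that cross an annotated UTR or coding exon were not printed. Capitals mark CACGTG, the E-box that MYC family proteins bind, where it occurs.
HOXA6: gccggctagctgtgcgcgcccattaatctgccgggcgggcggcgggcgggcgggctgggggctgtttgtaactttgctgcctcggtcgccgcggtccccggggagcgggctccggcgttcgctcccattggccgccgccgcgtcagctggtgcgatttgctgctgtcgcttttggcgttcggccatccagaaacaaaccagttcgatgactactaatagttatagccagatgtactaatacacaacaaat
HOXA9: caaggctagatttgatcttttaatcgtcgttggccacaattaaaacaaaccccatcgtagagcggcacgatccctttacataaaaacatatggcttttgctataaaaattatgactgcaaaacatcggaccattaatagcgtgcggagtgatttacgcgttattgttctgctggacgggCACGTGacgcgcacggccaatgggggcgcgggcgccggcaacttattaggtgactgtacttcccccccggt
HOXA11: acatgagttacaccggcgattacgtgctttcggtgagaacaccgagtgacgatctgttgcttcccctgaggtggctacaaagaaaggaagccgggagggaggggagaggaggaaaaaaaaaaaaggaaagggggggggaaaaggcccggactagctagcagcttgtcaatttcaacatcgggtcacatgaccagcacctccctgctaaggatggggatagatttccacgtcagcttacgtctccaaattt

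The E-box lay 71 bases before the HOXA9 start in this window and did not occur in the HOXA6 and HOXA11 windows. Silent genes held it too, 51 bases before the start in 1 HOXA3 window (chr7:27118358-27118607) and 200 bases before the start in the HOXA4 window. It was found in 6.34% of all 35116 RefSeq promoter windows of this length. Neither strand of the 3 windows held TGATTNAT, the composite site of PBX and HOX proteins, which 2.48% of all windows held. The 3 windows also lacked TGACAG, the site of MEIS proteins, which 13% held. TGACAG did occur on a strand of the silent HOXA4 window, 107 bases before the start, and of the expressed PBX3 window, 20 bases before the start. CpG dinucleotides numbered 27 in the HOXA6 window, 20 in that of HOXA9 and 11 in that of HOXA11, against a median of 11 over all windows. Other windows lay within this range or outside it, with 36 for PBX3, 28 for HOXA7, 26 for HOXA4 and 16 for MEIS1. The HOXA10 windows held 19 and 24, and the HOXA3 windows 0 to 26. A match is a description of letters, not of binding.

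Along the cluster, from HOXA2 onwards, levels were near 0 up to HOXA7, high at HOXA9 and HOXA10, and lower again beyond them. HOXA2 averaged 0.166 FPKM, HOXA11 averaged 6.9 FPKM and HOXA13, the last gene of the cluster, 0.694 FPKM. The same profile was present under all 4 conditions. The kit gave no stated strand information, so reads of a gene and its antisense partner cannot be told apart, and the HOXA9 and HOXA10 loci overlap.

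**Figure D2:**
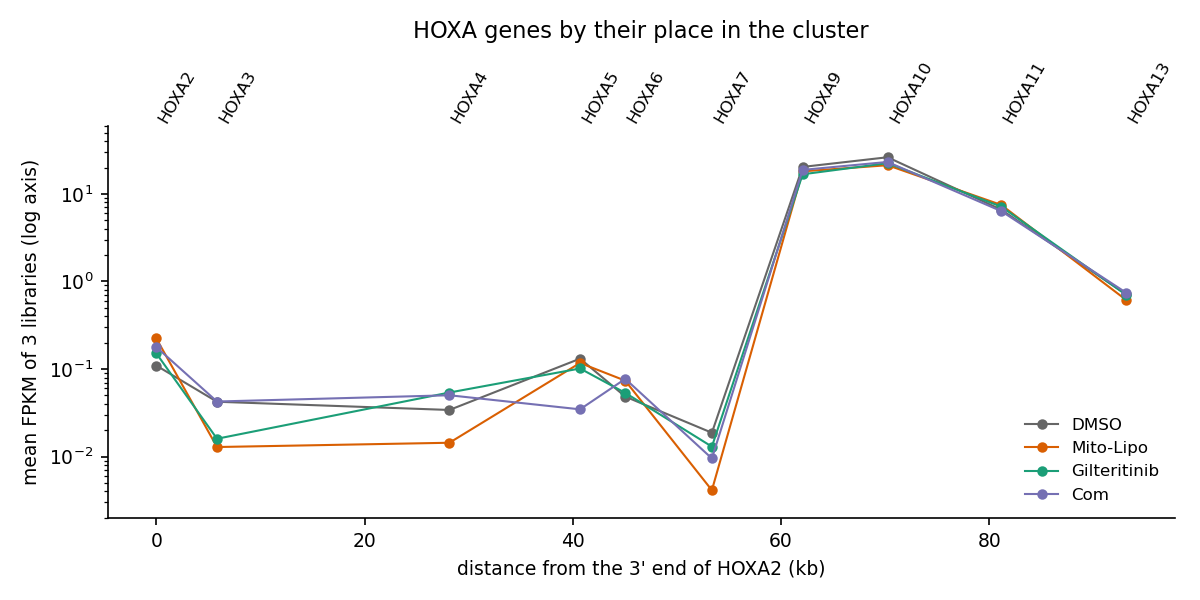
Mean FPKM of 3 libraries (log axis) for the 10 HOXA genes from HOXA2 to HOXA13, placed by the distance of each gene's 3' end from that of HOXA2 in kb, with 1 line per condition. Under every condition the level steps up between HOXA7 at 53.4 kb and HOXA9 at 62.1 kb.

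The antisense and long non-coding genes of the cluster followed the same border in part. HOXA10-AS averaged 2.83 FPKM and HOXA11-AS 3.67 FPKM, both beside expressed HOX genes, whereas HOXA-AS2 averaged 0.0602 FPKM and HOXA-AS3 0.0232 FPKM beside silent ones. HOTAIRM1, at the anterior end of the cluster, averaged 2.15 FPKM, and HOTTIP, beyond HOXA13, 0.178 FPKM. Of the 6 such genes in the table, a set of 3 had at least 1 FPKM in at least 3 libraries, and none was called by limma in any comparison between conditions (0 adjusted calls). HOTAIRM1 had an unadjusted limma p under 0.05 in Gilteritinib against DMSO (log2 fold change -0.56, SE 0.23), beside 1.86% of all tested genes. The same held in Com against Gilteritinib (0.73, SE 0.23), beside 1.63%. Its interaction was 1.05 (SE 0.32), with a limma p of 0.00772 before adjustment, beside 2.91% under 0.05, and 0.9997 after. From DMSO to Gilteritinib, HOTAIRM1 rose in replicate 1, from 2.03 to 2.42 FPKM. It fell in replicate 2 (2.49 to 0.734 FPKM) and replicate 3 (2.87 to 1.16 FPKM). Com libraries had 3.01, 2.74 and 2.92 FPKM. A fit of HOTAIRM1 without replicate 1 is not given here.

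The silent genes gave few fragments. Over all 12 libraries, 41 fragments were counted for HOXA3, 29 for HOXA4, 71 for HOXA5, 27 for HOXA6 and 10 for HOXA7, out of 437118081 fragments in all. HOXA9 gave 16594 fragments over the same libraries. Zero values occurred for HOXA3, HOXA4 and HOXA6 in 2 libraries each and for HOXA7 in 5 libraries. HOXA5 was above 0 in all 12 libraries.

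HOXA5, a central HOX gene, was the silent member with the most fragments. It gave 8, 7 and 8 fragments in DMSO and 7, 6 and 9 in Mito-Lipo. Gilteritinib libraries gave 11, 6 and 3 fragments, and Com libraries gave 2, 3 and 1. All 3 Com libraries lay under every DMSO and Mito-Lipo library, and the highest Com library (0.0527 FPKM) lay above the lowest Gilteritinib library (0.0475 FPKM). Scaled for depth, Com had 0.264 times the DMSO level, with a 95% counting interval of 0.0879 to 0.667 from 6 and 23 fragments. The exact permutation test, two-sided, gave p = 0.1 for Com against DMSO, the smallest value that 3 libraries against 3 allow, and HOXA5 was singled out after its values were seen. Intervals of this kind cover counting error only.

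HOXA3 had 3, 6 and 6 fragments in DMSO, 2, 1 and 2 in Mito-Lipo, 0, 6 and 0 in Gilteritinib and 4, 5 and 6 in Com. The Mito-Lipo libraries lay under those of DMSO and Com, and the exact permutation p was again 0.1. HOXA4, HOXA6 and HOXA7 ranged from 0 to 6 fragments per library. In FPKM, HOXA4 libraries of Com and of Gilteritinib lay above those of Mito-Lipo, with exact permutation p = 0.1. Their depth-scaled ratios had 95% counting intervals of 0.807 to 18.6 and 0.936 to 19.8, which include 1. In fragments these groups met at 2, with 2, 0 and 1 in Mito-Lipo, 3, 4 and 2 in Com and 6, 3 and 2 in Gilteritinib. In FPKM, HOXA7 libraries of Mito-Lipo lay under those of DMSO, with exact permutation p = 0.1 and a counting interval of 0.00477 to 2.37. In fragments these groups met at 1, with 0, 0 and 1 in Mito-Lipo and 1, 2 and 1 in DMSO. The smallest exact permutation p that 3 libraries against 3 allow is 0.1, so this test cannot decide on any of these differences. These 5 genes did not reach the filter of 1 FPKM in 3 libraries and entered no model.

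The remaining 5 genes were tested with limma on log2(FPKM + 1) over the 12 libraries, 1 mean per condition, together with all 18574 genes that passed the filter, and called at a Benjamini-Hochberg adjusted p under 0.05. Fold changes are on the log2(FPKM + 1) scale. By mean level over the 12 libraries, PBX3 was at the 94th and HOXA11 at the 57.4th percentile of the tested genes. HOXA10 spans chr7:27170591-27180261 and HOXA11 chr7:27181510-27185223, while MEIS1 lies at chr2:66433452-66573869 and PBX3 at chr9:125747345-125967377, both on the plus strand (GENCODE release 29). In every library the order of levels ran from PBX3 to MEIS1, then to the pair HOXA10 and HOXA9, and HOXA11 was the lowest. Within the pair, HOXA10 was higher than HOXA9 in 10 of 12 libraries, and HOXA9 was higher in Mito-Lipo replicate 2 and Com replicate 2.

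No member was called between conditions. Of the 5 genes, 0 passed limma's adjusted threshold in Mito-Lipo, in Gilteritinib and in Com against DMSO, where 0%, 0% and 0.00538% of all tested genes did. At an unadjusted limma p under 0.05 the counts were 1, 0 and 0, against backgrounds of 7.9%, 1.86% and 1.67%. Libraries of the groups did not overlap for 1, 0 and 1 of the genes, against backgrounds of 13.6%, 6.57% and 5.73%. The median difference of the 5 genes from DMSO was -0.10 in Mito-Lipo, -0.16 in Gilteritinib and -0.05 in Com, beside medians over all tested genes of 0.03, -0.03 and -0.01. In bulk samples, fewer cells with a transcript and less transcript per cell cannot be told apart.

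HOXA9, the HOX gene most closely tied to KMT2A-rearranged leukemia, measured 15.7, 22.99 and 22.2 FPKM in DMSO. Mito-Lipo libraries had 16.8, 19.5 and 17.9 FPKM, Gilteritinib libraries 16.7, 16.4 and 17.1 FPKM, and Com libraries 14.9, 20.4 and 21.1 FPKM. The first DMSO and the first Com library were the lowest of all, so each treated group overlapped DMSO. Gilteritinib was the most even group, at 16.7 ± 0.348 FPKM (SD, n = 3) against 20.3 ± 3.99 FPKM (SD, n = 3) in DMSO, and its SD was below the counting error of a library, 0.459 FPKM. The log2 fold change of Gilteritinib against DMSO was -0.25 (SE 0.15, 95% interval -0.58 to 0.09) with a limma adjusted p of 1. For Mito-Lipo it was -0.14 and for Com -0.10, each with SE 0.15.

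HOXA10, which lies next to HOXA9 and restrains myeloid maturation, measured 22.7, 25.9 and 30.0 FPKM in DMSO. Mito-Lipo libraries had 24.9, 19.3 and 19.6 FPKM, Gilteritinib libraries 27.5, 20.3 and 19.5 FPKM, and Com libraries 27.1, 19.9 and 22.5 FPKM. Here replicate 1 was the lowest DMSO library and the highest library of each treated group. The log2 fold changes against DMSO were -0.29 in Mito-Lipo, -0.22 in Gilteritinib and -0.17 in Com, with SE 0.16, and none was called.

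HOXA11, best known from limb and uterine development, measured 5.72, 7.37 and 6.72 FPKM in DMSO. Mito-Lipo libraries had 6.11, 7.70 and 8.62 FPKM, Gilteritinib libraries 6.40, 8.04 and 7.01 FPKM, and Com libraries 5.34, 6.52 and 7.21 FPKM. Every group overlapped every other. The log2 fold changes against DMSO were 0.15 in Mito-Lipo, 0.10 in Gilteritinib and -0.05 in Com, with SE 0.14.

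MEIS1, the TALE cofactor of HOXA9, was the only one of the 5 genes with an unadjusted p under 0.05 against DMSO. It measured 35.8, 38.6 and 38.8 FPKM in DMSO and 42.02, 43.34 and 43.26 FPKM in Mito-Lipo. Gilteritinib libraries had 32.9, 40.2 and 39.4 FPKM, and Com libraries 40.9, 40.8 and 40.10 FPKM. All Mito-Lipo libraries lay above all libraries of the other 3 conditions, and all Com libraries above all DMSO libraries. The log2 fold change of Mito-Lipo against DMSO was 0.18 (SE 0.08, 95% interval 0.01 to 0.35), with a limma p of 0.0385 before and 0.591 after adjustment. The unadjusted limma p was 0.0649 without the mean-variance trend and 0.261 under median-ratio scaling. It was above 0.05 when any DMSO or Mito-Lipo library, or Com replicate 2 or 3, was left out, and ranged from 0.00685 to 0.117 over the 12 libraries left out in turn, with the fold change above 0 in each of these fits. The fold change of Com was 0.10 (SE 0.08, interval -0.06 to 0.27), and that of Gilteritinib was -0.01, turning to 0.039 under median-ratio scaling.

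PBX3, whose protein stabilises HOXA9 and MEIS1 on DNA, measured 57.3, 49.3 and 53.7 FPKM in DMSO. Mito-Lipo libraries had 50.002, 53.1 and 46.1 FPKM, Gilteritinib libraries 50.1, 48.8 and 44.0 FPKM, and Com libraries 56.0, 51.1 and 50.4 FPKM. The treated groups all overlapped DMSO. The log2 fold changes were -0.10 in Mito-Lipo, -0.16 in Gilteritinib (95% interval -0.34 to 0.02) and -0.02 in Com, with SE 0.08.

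Between the treated groups the counts were likewise 0. Com against Mito-Lipo, Com against Gilteritinib and Gilteritinib against Mito-Lipo each called 0 of the 5 genes at limma's adjusted threshold, with a background of 0% in each. At an unadjusted limma p under 0.05 the counts were 0, 0 and 1, beside 5.53%, 1.63% and 9.52% of all tested genes, and libraries did not overlap for 1, 1 and 1 genes, beside 9.34%, 6.2% and 14.4%. MEIS1 was lower in Gilteritinib than in Mito-Lipo by a log2 difference of -0.19 (SE 0.08), with a limma p of 0.0289 before and an adjusted p of 0.455 after adjustment. Without the first Gilteritinib library that difference was -0.10 with an unadjusted limma p of 0.111. PBX3 libraries of Com lay above those of Gilteritinib, by a log2 difference of 0.14 (SE 0.08, limma adjusted p = 1).

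The interaction compares the step from Gilteritinib to Com with the step from DMSO to Mito-Lipo, at unequal gilteritinib doses (20 nM in Com, 25 nM alone). It called 0 of the 5 genes in limma, with a background of 0%, and 0 genes had an unadjusted p under 0.05, with a background of 2.91%. The values were 0.29 for HOXA9, 0.34 for HOXA10, -0.30 for HOXA11, -0.06 for MEIS1 and 0.24 for PBX3, on the log2 scale.

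The replicate number was tested in the same way. In the fit with condition and replicate number, limma's F test over the 3 numbers called 1 of the 5 genes, HOXA11, beside 27.9% of all tested genes, and 2 genes had an unadjusted p under 0.05, beside 41.6%. In this fit the members' counts were thus not above the background. Under median-ratio scaling the F test called 3 of the 5 genes, beside 4886 of all 18574 tested genes. For HOXA11 the F test of the unscaled values gave a limma adjusted p of 0.0241. Its replicate 1 differed from the mean of replicates 2 and 3 by -0.28 on the log2 scale (SE 0.06), with the same sign in all 4 conditions. Leaving out the first Mito-Lipo or the first Com library ended this call. For HOXA9 the F test gave a limma adjusted p of 0.0695, replicate 1 differed from the mean of the others by -0.27 (SE 0.08), and the shift was -0.50 in DMSO and -0.45 in Com but -0.15 in Mito-Lipo and 0.00 in Gilteritinib. HOXA10 shifted by -0.28 in DMSO and by 0.34, 0.45 and 0.34 in Mito-Lipo, Gilteritinib and Com. What a replicate number stands for is not stated.

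**Figure D3:**
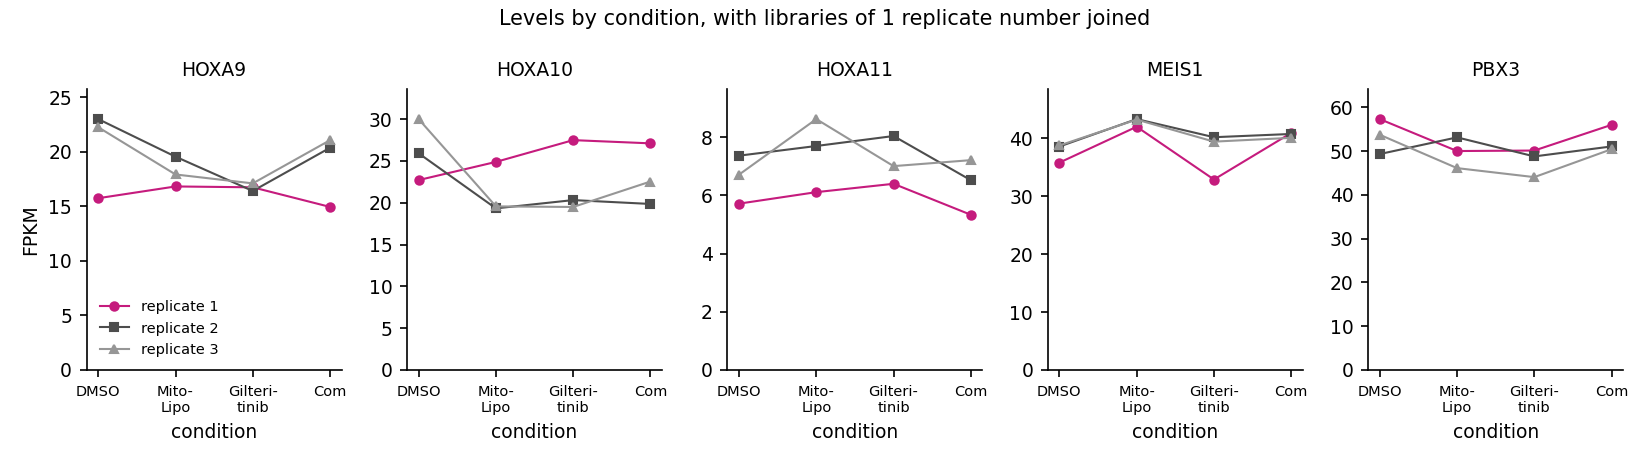
FPKM of the 5 expressed genes by condition, each axis starting at 0, with libraries of the same replicate number joined by a line. Replicate 1 of HOXA9 starts at 15.7 FPKM in DMSO, under replicates 2 and 3 at 22.99 and 22.2 FPKM, and the HOXA10 line of replicate 1 rises from DMSO to Mito-Lipo where the other lines fall.

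The HOXA10 to HOXA9 ratio showed the same split. In replicate 1 it was 1.44 in DMSO, 1.48 in Mito-Lipo, 1.64 in Gilteritinib and 1.81 in Com. In replicates 2 and 3 it ranged from 0.975 to 1.35. All 4 libraries of replicate 1 lay above the 8 others.

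Of the 9 myelomonocytic markers tested, the F test of the replicate number called 4, beside 27.9% of all tested genes, and these stood in opposite directions, LYZ higher and CSF1R, ITGAM and CD33 lower in replicate 1. The other 5 were not called. LYZ averaged 1031 FPKM in replicate 1 and 533 FPKM in replicates 2 and 3, and CSF1R averaged 15.2 and 27.5 FPKM. The list's summed level ranged from 873 to 1718 FPKM over the libraries. ITGAM averaged 0.806 FPKM in replicate 1 and 2.52 FPKM in the others. Their part in the shifts of HOXA9, HOXA10 and HOXA11 was not tested.

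The comparisons were repeated with replicates 2 and 3 only, a choice made with the split in view and leaving 2 libraries per group. In Mito-Lipo against DMSO, 3 of the 5 genes were then called, beside 6.41% of all tested genes. HOXA9 fell (log2 fold change -0.26, SE 0.05, limma adjusted p = 0.0423), HOXA10 fell (-0.50, SE 0.08, limma adjusted p = 0.0248) and MEIS1 rose (0.16, SE 0.03, limma adjusted p = 0.0301). In Gilteritinib against DMSO 1 of the 5 was called, beside 0.614% of all genes.

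That gene was HOXA9, which fell by 0.41 on the log2 scale (SE 0.05, limma adjusted p = 0.0385). HOXA10 had a similar difference of -0.47 (SE 0.08) that missed the threshold with a limma adjusted p of 0.0993. In Com against DMSO 0 of the 5 were called in limma, beside 0.0485% of all genes, and 1 had an unadjusted p under 0.05, HOXA10 at -0.38 (limma adjusted p = 0.343). HOXA9 in Com differed from DMSO by -0.12 (SE 0.05, limma adjusted p = 0.689).

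The interaction then called 1 of the 5 genes, beside 2.97% of all genes. It was HOXA9 at 0.55 (SE 0.07, limma adjusted p = 0.0182), with levels in replicates 2 and 3 of 22.99 and 22.2 FPKM in DMSO, 19.5 and 17.9 FPKM in Mito-Lipo, 16.4 and 17.1 FPKM in Gilteritinib and 20.4 and 21.1 FPKM in Com. Com lay between DMSO and the single drugs. In replicate 1 the differences from DMSO had the other sign for Mito-Lipo (0.09) and Gilteritinib (0.08), while Com differed by -0.07. For HOXA10 the replicate 1 differences were 0.13, 0.26 and 0.25 in the same order. The calls of HOXA9 in Mito-Lipo and Gilteritinib and of HOXA10 in Mito-Lipo thus rest on 8 of the 12 libraries, and the difference between replicate 1 and the other replicates in the drug response was not tested.

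**Figure D4:**
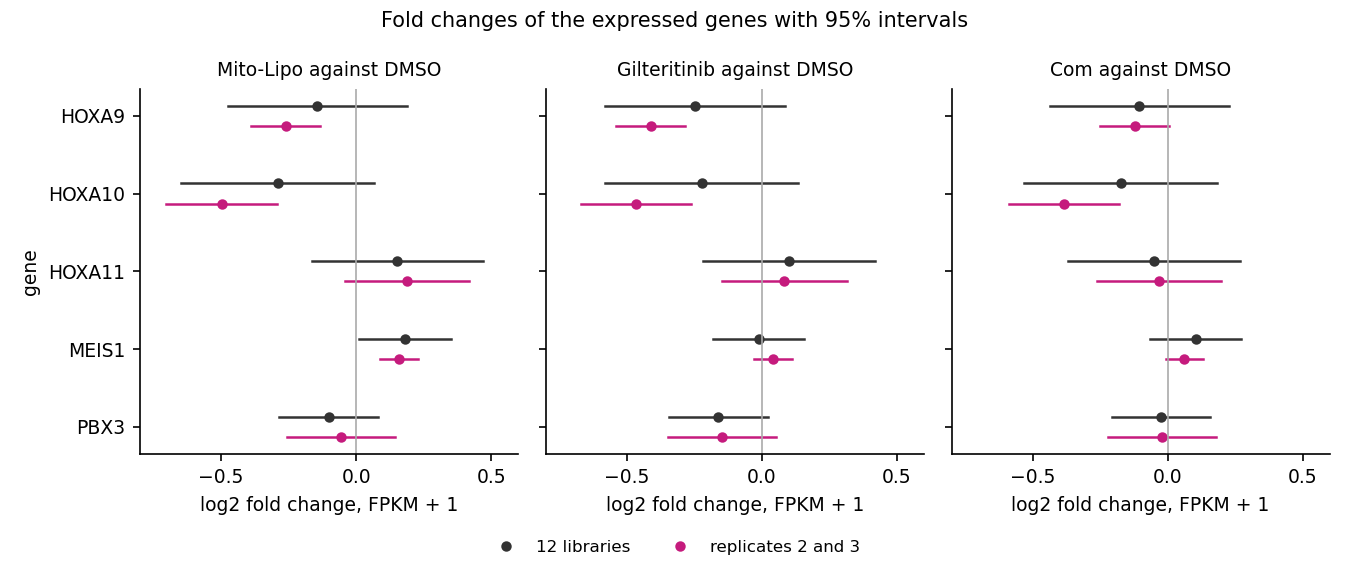
Log2 fold changes of FPKM + 1 against DMSO with 95% intervals for HOXA9, HOXA10, HOXA11, MEIS1 and PBX3, from all 12 libraries (dark) and from replicates 2 and 3 only (pink). Without replicate 1 the HOXA9 value moves from -0.25 to -0.41 in Gilteritinib and the HOXA10 value from -0.29 to -0.50 in Mito-Lipo, with narrower intervals.

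MEIS1 in Mito-Lipo was higher than in DMSO in all 3 replicate numbers. Its log2 difference from the DMSO library of the same number was 0.22, 0.16 and 0.15. In Com the corresponding values were 0.19, 0.08 and 0.05. PBX3 in Gilteritinib was lower in all 3 numbers, by log2 differences of -0.19, -0.02 and -0.28, and was called in neither fit.

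Taking the replicate number as a block in the fit of all 12 libraries called none of the 5 genes in any of the 6 comparisons or the interaction (0 calls in limma). At an unadjusted limma p under 0.05, this block fit gave 2 genes in Gilteritinib against DMSO, beside 4.96% of all tested genes. These were HOXA9 and PBX3, both with lower values in Gilteritinib. MEIS1 in Mito-Lipo against DMSO had an unadjusted limma p of 0.0165 in that fit, where 15.9% of all tested genes were under 0.05, and an adjusted p of 0.217. MEIS1 in Gilteritinib against Mito-Lipo had an unadjusted limma p of 0.0118, beside 18% of all genes. HOXA11 in Com against Mito-Lipo had an unadjusted limma p of 0.0371, beside 12.2%. In the interaction PBX3 and HOXA11 had unadjusted limma p of 0.0300 and 0.0287, beside 7.4% of all genes.

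Genes whose pattern over the 12 libraries was most like that of HOXA9, among 7498 protein-coding genes with a mean of at least 5 FPKM, were MID1IP1 (Pearson r = 0.965), HMX3 (0.939) and CDT1 (0.878). For MEIS1 they were ELMO2 (0.963), SND1 (0.941) and NDST1 (0.936), and for PBX3 CDK13 (0.946), PCNX4 (0.856) and RCOR3 (0.856). The other members were less alike: HOXA9 and MEIS1 had r = 0.14, HOXA9 and HOXA10 0.0978, HOXA9 and PBX3 -0.11, and HOXA9 and HOXA11 0.41. MEIS1 had r = -0.49 with HOXA10, 0.39 with HOXA11 and -0.19 with PBX3, and PBX3 had -0.64 with HOXA11 and 0.45 with HOXA10. All these values are descriptions over libraries that share condition and replicate number.

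Outside the HOXA cluster, the HOX genes in the table had lower mean levels than the 5 expressed members, while 1 TALE gene, PKNOX1, averaged more than HOXA11. HOXB4 averaged 4.38 FPKM, HOXB3 2.41 FPKM and HOXB7 1.65 FPKM, so HOXA9 was 4.22 times as high as HOXB4. HOXC6, the highest HOXC gene, averaged 0.824 FPKM, followed by HOXC11 (0.287 FPKM) and HOXC4 (0.239 FPKM), and the 3 HOXD genes in the table summed to at most 0.0345 FPKM in a library. Among TALE genes, PBX2 (0.057 FPKM) was near 0 and PBX4 averaged 1.35 FPKM, so PBX3 was 37.7 times as high as PBX4. MEIS2 averaged 3.62 FPKM, MEIS3 0.0491 FPKM, PKNOX1 8.05 FPKM and PKNOX2 0.00218 FPKM. Of the 4 HOXB and 3 TALE genes tested, 0 were called in any of the 6 comparisons by limma, and HOXB6 in Com against Mito-Lipo alone had an unadjusted p under 0.05.

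Of 22 other KMT2A fusion targets, 15 were tested and 0 were called by limma against DMSO under any drug, with 0 at an unadjusted p under 0.05. Their median differences from DMSO were -0.04 in Mito-Lipo, -0.05 in Gilteritinib and -0.02 in Com, beside 0.03, -0.03 and -0.01 over all tested genes. The F test of the replicate number called 7 of the 15, with 4 higher and 3 lower in replicate 1, beside 27.9% of all tested genes. MYB averaged 200 FPKM, CDK6 103 FPKM and BCL2 93.2 FPKM. Of the KMT2A complex and elongation partners, 12 were tested and 0 called against DMSO. In Mito-Lipo, Gilteritinib and Com, 3, 1 and 1 had an unadjusted limma p under 0.05, beside 7.9%, 1.86% and 1.67% of all tested genes. These were 2 higher and 1 lower in Mito-Lipo, 1 lower in Gilteritinib and 1 higher in Com. Of 6 tested genes known to act downstream of HOX proteins and MEIS1, 0 were called and 0 had an unadjusted limma p under 0.05 against DMSO. MYB, BCL2 and FLT3 are in this list and among the 15 fusion targets, so the 2 results are not separate. The F test of the replicate number called 3 of the 6, SOX4, LMO2 and ID2. Their replicate 1 differed from the mean of the others by 0.94, -0.58 and -0.63 on the log2 scale.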

How the data were processed

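RNA of MV4-11 cells was sequenced in 12 libraries, 3 per condition. The authors deposited FPKM per gene in 1 table. The submitters' processing notes name Bowtie 0.12.9, Cufflinks 2.1.1, HTSeq and DESeq2, without their roles, and a mouse genome build, although the table holds human gene identifiers. The aligner settings and annotation release are not given in the sources used here. Symbols were found for 41585 of 43876 identifiers, and positions come from GENCODE release 29.

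Values were used as log2(FPKM + 1), with a filter of at least 1 FPKM in at least 3 libraries. limma 3.58.1 in R 4.3.3 was fitted with a trend of the variance on the mean, and p-values were adjusted by the Benjamini-Hochberg method over 18574 genes. The step was tested on simulated data with independent libraries and planted changes larger than any member difference given here. That trial says nothing on smaller changes or on a shift shared by the libraries of replicate 1. Exact permutation tests used scipy. Fragment counts were recovered from FPKM steps, at 89.9% to 92.1% whole values per library. The MEIS1 length was ambiguous by a whole factor, so its counts are at the smaller length. Of 20 group means, 2 had an SD below the counting error of a library, HOXA9 in Gilteritinib and MEIS1 in Com. The MEIS1 error in Com, 0.479 FPKM beside an SD of 0.444 FPKM, rests on the smaller length and would be lower at a longer one.

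The 18 pairs of same-numbered libraries of different conditions correlated in their deviations from condition means, from r = 0.165 to 0.657. The 36 pairs of other numbers ranged from r = -0.562 to 0.434, with 12 over 0.1. These ranges overlap, so a pairing by all 3 numbers is not shown. The source of the likeness is not stated. Alternatives were a pseudocount of 0.1, no filter, a mean of at least 5 FPKM, median-ratio scaling, quantile normalization, no trend, a replicate block, only the 6 libraries compared, each library left out, and replicates 2 and 3 only, which was chosen after seeing the data. The members and gene lists were chosen with earlier results of these data known. All 10 members were named, other genes by list, by place in the HOX and TALE families, or by rank of likeness. A few withheld genes of these families are not reported here.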

Additional observations from a re-analysis of the deposited data

How the results depend on the processing

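At limma's adjusted threshold, all 6 comparisons and the interaction kept a count of 0 members under a pseudocount of 0.1, no filter, a mean of at least 5 FPKM, both scalings, no trend, the replicate block and each library left out, and the 6 comparisons did so with their own 6 libraries alone. The exception was the fit without replicate 1 (added once the data had been seen), which called 3 members for Mito-Lipo, 1 for Gilteritinib and 0 for Com, each set against DMSO, and 1 for the interaction. The replicate block changed no call (0 in each). The replicate number test called 3 members under median-ratio scaling, beside 4886 of 18574 tested genes, and 2 under quantile normalization, beside 4458. It called 0 to 2 members when a library was left out. The count was 0 without the first Mito-Lipo library (beside 4567 genes) or the first Com library (beside 3005). It was 2 without the first Gilteritinib library (beside 3419). The cause of these changes was not tested.

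Uncalled log2 differences near 0 changed sign. MEIS1 in Gilteritinib against DMSO was 0.039 under median-ratio scaling and 0.041 without replicate 1, and ranged from -0.064 to 0.077 with a library left out. In Gilteritinib against Mito-Lipo, HOXA11 was 0.036 under median-ratio scaling and 0.052 under quantile normalization, PBX3 was 0.038 under median-ratio scaling, and leaving out a library gave -0.17 to 0.046 for HOXA11 and -0.082 to 0.18 for HOXA10. Against DMSO, leaving out a library gave for Com -0.14 to 0.055 (HOXA11), -0.27 to 0.044 (HOXA9) and -0.080 to 0.026 (PBX3). HOXA9 in Com against Mito-Lipo ranged from -0.047 to 0.19, and HOXA10 in Com against Gilteritinib from -0.065 to 0.20.

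With 3 libraries per condition, exact tests of the silent genes cannot go below p = 0.1, and their 178 fragments in all limit any statement on them.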
